A study of Mus musculus with 4 samples.

Results

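Il17a, Ccr6, Ltb4r1, Dpp4, Rbpj and Acsbg1, 6 genes that mark or serve Th17 cells, were followed through a table of captured methylated DNA from 4 populations of mouse CD4+ T cells. The members were all regions that the deposited table assigns to these 6 genes by name. There were 8 such regions out of 10000, and 6 genes out of 5377 gene identifiers. Il17a and Acsbg1 had 2 regions each and the other genes 1 each.

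Each population gave 1 library, from spleen and lymph node cells of female Balb/c mice with no engineered allele named in the labels. The sources used here do not give the number of mice, their age or any pooling. Th17 cells were CD3+CD4+ cells with low CD45RB that secreted IL-17A and no interferon gamma, and Th1 cells had the same surface markers and the opposite secretion. Treg cells were CD3+CD4+ with very high CD25, and naive T cells were CD3+CD4+ with high CD45RB. All 4 populations were stimulated with PMA and ionomycin for 3 h, Treg cells after the sort and the others before it. Captured DNA carries no expression level, so the labels could not be checked against marker expression. Of the 9 sort and identity genes looked up (Cd3e, Cd3d, Cd3g, Cd247, Cd4, Ptprc, Il2ra, Ifng and Il17a), 1 had a region, Il17a. Markers of other cells had regions for 5 of 8 B cell genes, 3 of 10 myeloid and dendritic genes, 0 of 2 CD8 genes and 0 of 3 NK cell genes. Since a missing gene may only not have been selected for the table, these counts say nothing of the purity of the sorts.

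Th17 cells are helper cells of mucosal defence that release IL-17A. Methylation of CpG sites near the start of a cytokine gene is generally associated with a silent gene in helper cells that do not make that cytokine. Fragments were captured with a MethylCap kit, which binds methylated CpG sites through a methyl-CpG-binding domain, and were then sequenced, so the reads of a region rise with both its methylation and its number of CpG sites. Levels of different regions are therefore not levels of methylation, while levels of 1 region can be set side by side between libraries. In a mixed population, fewer methylated copies of a region and fewer methylated sites per copy cannot be told apart.

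The sequence just upstream of Il17a is shown because the table places 1 of the 2 Il17a regions in its promoter and exon 1. It is the RefSeq sequence of build GRCm38.p6, plus strand, chr1:20730655-20730904, the 250 bases that end just before the annotated start, with the CpG sites, which the capture can bind when methylated, in capitals.

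Il17a: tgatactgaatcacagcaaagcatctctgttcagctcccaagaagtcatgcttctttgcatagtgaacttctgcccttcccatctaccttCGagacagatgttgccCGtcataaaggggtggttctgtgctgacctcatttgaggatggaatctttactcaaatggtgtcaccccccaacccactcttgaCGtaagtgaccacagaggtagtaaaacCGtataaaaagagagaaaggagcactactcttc

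The 250 bases hold 4 CpG sites, at -160, -144, -60 and -33 bases from the start (the position of the C, with -1 the base before the start). Among 32851 promoter windows of this length, the median was 6 CpG sites and 37.8% had fewer than 4. A TATAAA match lies at -31 on the plus strand, next to the last CpG site. An AGGTCA match, the core that ROR family nuclear receptors recognise, lies on the minus strand at -120, between the CpG sites at -144 and -60. Both strands were searched. TATAAA was found in 12.4% and AGGTCA in 14.0% of all windows, and a match is no evidence of binding.

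The deposited table gives the centre of the promoter region of Il17a as 36 bp from a start that it does not define. Taken as the distance downstream of the transcription start, this puts the region from -164 to 236, so that all 4 CpG sites above would lie inside it. In the 2 genes of the table with several promoter regions and a known strand, this reading gave 1 start per gene within 1 bp. The table is in build mm9 and the sequence in GRCm38.p6, and whether both use the same start was not checked. The promoter region of Ltb4r1 had its centre at 254 bp, from 120 to 388, and so would begin after the Ltb4r1 window, which holds 3 CpG sites.

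**Figure D1:**
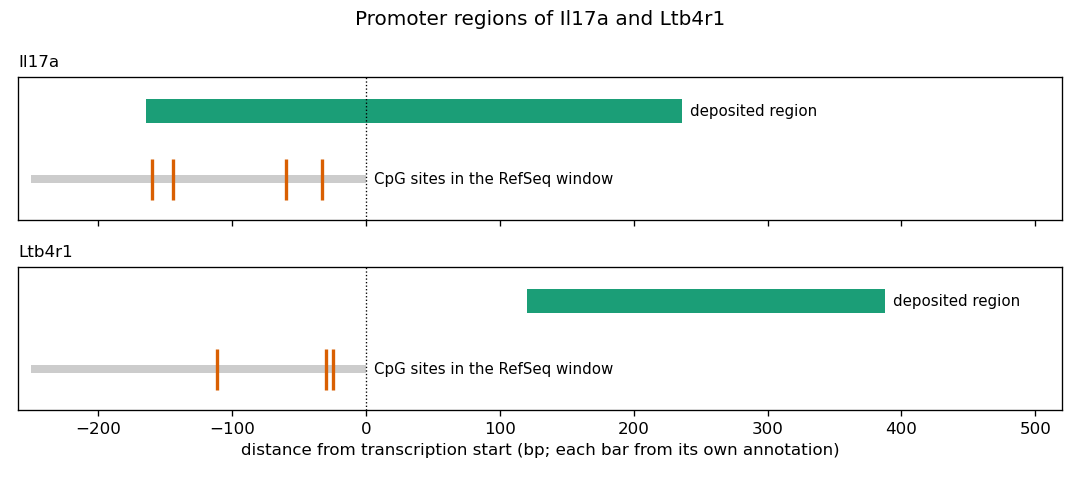
Promoter regions of Il17a (top) and Ltb4r1 (bottom), with distance from the transcription start in bp on the horizontal axis; green bars are the deposited regions (mm9) and orange ticks the CpG sites in the 250 bases upstream in RefSeq (GRCm38.p6), each placed from its own start. If the deposited distance is counted from the start and both builds use the same start, which was not checked, the Il17a region would span the start and all 4 upstream CpG sites, and the Ltb4r1 region would begin 120 bp after the start.

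The deposited value of a region is its reads times a constant of the library. From the values, 1 read was worth 1.68 in the Th1 library, 0.352 in the Treg library and 0.996 in the naive library. The table held 19548 Th1, 74571 Treg and 34277 naive reads, so Treg values were the most finely resolved. The Th17 column was 0 in all 10000 regions. Its depth cannot be recovered, so no upper limit or fold can be given for Th17. The 6 genes were at 0 in Th17 cells because every region of the table was.

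Il17a encodes the cytokine that defined the Th17 sort. Its region across the promoter and exon 1 (mm9, chr1:20720822-20721221, 400 bp) was listed at 0 in Th17 cells, against 3 reads in Th1 cells, 11 in Treg cells and 4 in naive cells. The deposited values were 5.04 in Th1 cells (exact Poisson 95% interval 1.04 to 14.7), 3.88 in Treg cells (1.94 to 6.94) and 3.98 in naive cells (1.09 to 10.2). The 3 libraries that were read overlapped widely. Intervals here cover counting error only, and with 1 library per population no difference has a replicate check.

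The second Il17a region lay in exon 2 (chr1:20722245-20722432, 188 bp), 1023 bp further along the chromosome. It held 0 in Th17 cells, against 2 reads in Th1 cells, 5 in Treg cells and 5 in naive cells. The values were 3.36 in Th1 cells (interval 0.407 to 12.1), 1.76 in Treg cells (0.572 to 4.11) and 4.98 in naive cells (1.62 to 11.6). Treg cells were the lowest of the 3 libraries that were read, as in the means over all regions, with an interval that overlapped both others. Region numbers in the table rise with position on all 20 chromosomes, and 2 numbers fall between the Il17a regions. The nearest regions of other genes were far off, 255874 bp before (Pkhd1) and 312034 bp after (Tram2).

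Ccr6 and Ltb4r1 are chemoattractant receptors. Ccr6, which binds the chemokine CCL20 and guides Th17 cells to mucosal tissue, had an intronic region (chr17:8436801-8436963) that was the shortest of the 8, with 163 bp. It was listed at 0 in Th17 cells, against 2 reads in Th1 cells (value 3.36), 7 in Treg cells (2.47) and 4 in naive cells (3.98). As in Il17a exon 2, the naive value was the highest and the Treg value the lowest, within overlapping intervals. The means over all regions of the table had the same order (naive 3.41, Th1 3.29 and Treg 2.63).

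Ltb4r1 encodes the high-affinity receptor for leukotriene B4. Its region over the promoter and exon 1 (chr14:56384919-56385186, 268 bp) held 0 in Th17 cells, against 3 reads in Th1 cells, 16 in Treg cells and 5 in naive cells. The values were close to each other, at 5.04 in Th1 cells (interval 1.04 to 14.7), 5.64 in Treg cells (3.22 to 9.16) and 4.98 in naive cells (1.62 to 11.6). With 24 reads in all it was the best covered of the 8 regions, above the table's median of 13.

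Dpp4 encodes CD26, a surface peptidase that trims chemokines and is used as a marker of human Th17 cells. Its intronic region (chr2:62207907-62208331) was the longest of the 8, with 425 bp, and held 0 in Th17 cells, against 2 reads in Th1 cells (value 3.36), 8 in Treg cells (2.82) and 2 in naive cells (1.99). Here the naive value was the lowest of the 3 libraries that were read, again within overlapping intervals.

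Rbpj encodes the DNA-binding protein through which Notch signals reach their target genes. Its intronic region (chr5:53983931-53984153, 223 bp) was listed at 0 in Th17 cells, against 0 reads in Th1 cells, 9 in Treg cells (value 3.17, interval 1.45 to 6.02) and 3 in naive cells (2.99, interval 0.616 to 8.73). No other of the 8 regions lacked Th1 reads. Over the table, 12.3% of regions had no Th1 read. A count of 0 in the Th1 library allows a level of 3 reads, a value of 5.04, which is above both the Treg and the naive value, so no fold is given for it.

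Acsbg1 encodes an acyl-CoA synthetase that activates long-chain fatty acids. Its 2 regions lay in exon 11 (chr9:54462542-54462799, 258 bp) and exon 4 (chr9:54475614-54475822, 209 bp), 12814 bp apart with 13 region numbers between them. Exon 11 held 0 in Th17 cells, against 2 reads in Th1 cells (value 3.36), 12 in Treg cells (4.23) and 5 in naive cells (4.98). Exon 4 held 0 in Th17 cells, against 2 reads in Th1 cells (value 3.36), 8 in Treg cells (2.82) and 4 in naive cells (3.98). In both exons the naive value was the highest, as in the means over all regions, and all 3 intervals overlapped.

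**Figure D2:**
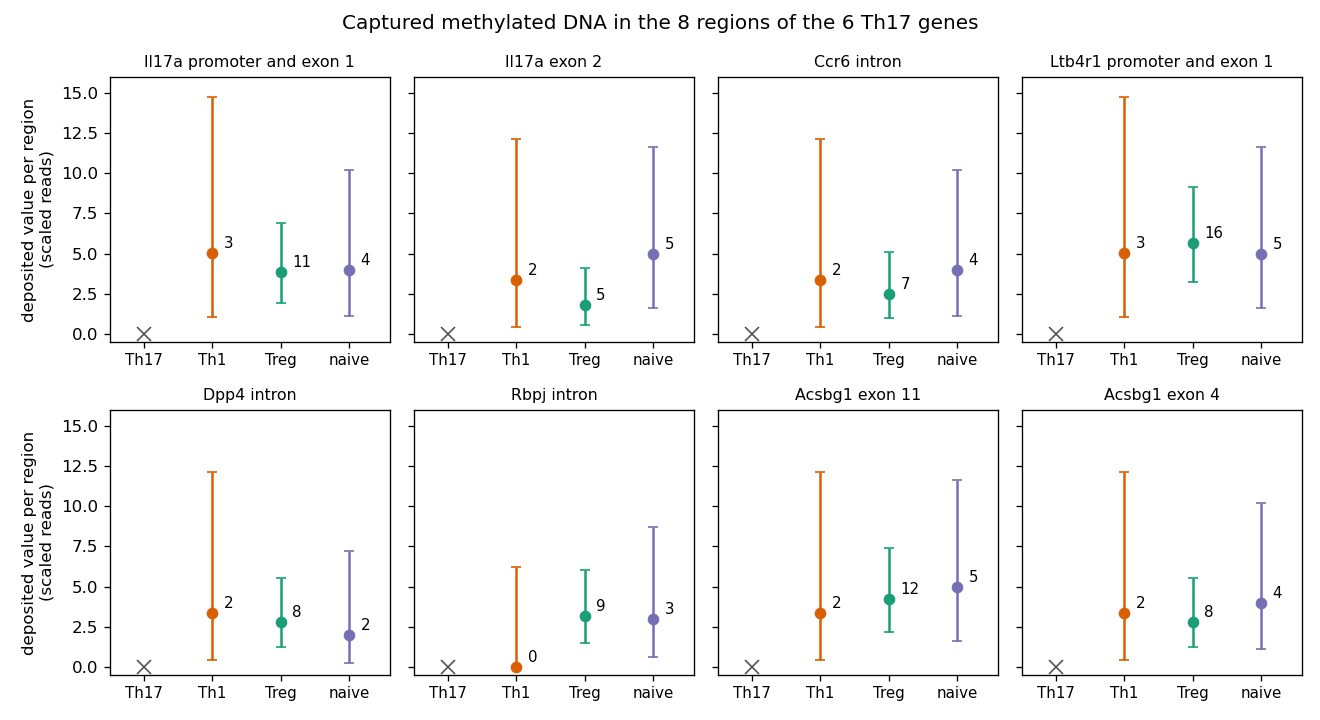
Deposited value (scaled reads per region, vertical axis) of the 8 regions in Th17, Th1, Treg and naive cells, with 1 library per population; bars are exact Poisson 95% intervals, small numbers are reads, and a cross marks Th17, listed at 0 with unknown depth. Intervals of the Th1, Treg and naive libraries overlap in every region, and the Rbpj intron alone has 0 Th1 reads.

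Of the 8 regions, 2 covered a promoter with exon 1, 3 lay in other exons and 3 in introns. In the whole table, 4.77% of regions were promoters, 16.6% exons and 78.6% introns, and regions over both a promoter and an exon made up 1.14%. The introns are not numbered in the table. Mean values of the 2 promoter regions were 5.04 in Th1, 4.76 in Treg and 4.48 in naive cells. Those of the 3 exons outside promoters were 3.36 in Th1, 2.94 in Treg and 4.65 in naive cells, and those of the 3 introns 2.24 in Th1, 2.82 in Treg and 2.99 in naive cells. The order of the libraries differed between these places, but each mean rests on 4 to 27 reads.

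The size rule counted a region as higher or lower from a log2 ratio of 1 upwards in size, after adding a pseudocount of 0.5 to each value. By this rule 7 of the 8 regions were lower in Th17 cells than in each of the other 3 populations, as were 85.2% of all regions in the table. The exception was Rbpj, for lack of Th1 reads. Against single populations, Th17 was lower than Th1 in 7 of 8 regions (87.7% of all regions), than Treg in 8 of 8 (98.9% of all) and than naive in 8 of 8 (98.4% of all), and higher in 0. The counts are near the background, and the Th17 column was 0 in every region of the table. Why it was 0 was not tested.

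Th1 cells against naive cells gave 0 regions higher (19.4% of all regions) and 1 lower (29% of all), Rbpj, a call that rests on its 0 Th1 reads and on the pseudocount. The other ratios of Th1 over naive ran between 0.675 in Il17a exon 2 and Acsbg1 exon 11 and 1.69 in Dpp4. The Il17a promoter region had a ratio of 1.27 (exact 95% interval 0.185 to 7.48).

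Treg cells against naive cells gave 0 regions higher (8.33% of all regions) and 1 lower (22.2% of all), Il17a exon 2. Its value was 1.76 in Treg cells and 4.98 in naive cells, a ratio of 0.354 (interval 0.0814 to 1.54) and a log2 ratio of -1.28. The Il17a promoter region had a ratio of 0.973 (0.288 to 4.19), so the intervals of the Il17a regions overlapped. With the libraries scaled to equal totals over the table, Il17a exon 2 no longer passed the size rule. The highest ratio was again in Dpp4, 1.42 (0.282 to 13.7).

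Treg cells against Th1 cells gave 1 region higher (17% of all regions), Rbpj, and 0 lower (21% of all). Rbpj again rested on its 0 Th1 reads. The other ratios of Treg over Th1 ran between 0.524 in Il17a exon 2 and 1.26 in Acsbg1 exon 11. In all 24 comparisons of the 8 regions the counting interval of the ratio held 1. These 3 comparisons share libraries, so their counts are not independent.

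**Figure D3:**
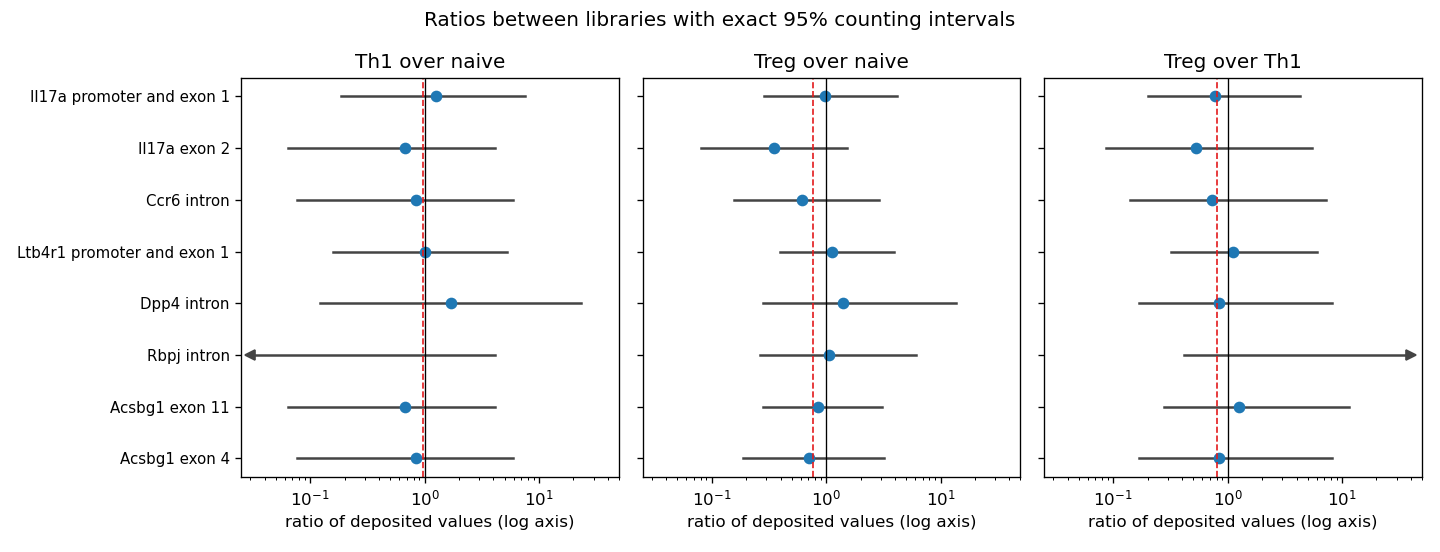
Ratio of deposited values (log axis) in Th1 over naive, Treg over naive and Treg over Th1 cells for the 8 regions; points are ratios, lines exact 95% counting intervals, arrows intervals that run off the axis, the black line a ratio of 1 and the dashed red line the ratio of summed values over the table. All intervals hold 1, and Rbpj has no point where its Th1 reads are 0.

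Summed over the 8 regions, there were 16 reads in Th1, 76 in Treg and 32 in naive cells. The mean value was 3.36 in Th1, 3.35 in Treg and 3.98 in naive cells, where the means of all regions were 3.29 in Th1, 2.63 in Treg and 3.41 in naive cells. The ratio of Th1 over naive was 0.844 (interval 0.432 to 1.58; over all regions 0.962), that of Treg over naive 0.840 (0.549 to 1.31; over all regions 0.770) and that of Treg over Th1 0.996 (0.576 to 1.83; over all regions 0.800). All 3 intervals held both 1 and the ratio over all regions. At equal table totals the Treg ratios were 1.09 over naive and 1.25 over Th1, on the other side of 1.

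Levels of the genes were ordered by the mean value over Th1, Treg and naive cells per 100 bp of region. Ccr6 came first with 2.01 and Ltb4r1 followed with 1.95, then Acsbg1 with 1.62, Il17a with 1.30, Rbpj with 0.921 and Dpp4 with 0.641. The table's median was 1.22, with 0.652 and 1.95 as its 5th and 95th percentiles. Per length, Ccr6 thus lay near the upper end of the table and Dpp4 near the lower end. Ccr6 had the shortest member region (163 bp) and Dpp4 the longest (425 bp). Not divided by length, their mean values were 3.27 in Ccr6 and 2.72 in Dpp4, at percentiles 60.5 and 33.2 of the table. Neighbours in this order had overlapping intervals in all 3 libraries, and so did Ccr6 and Dpp4. In Treg cells, the deepest library, Ccr6 had 1.51 (0.609 to 3.12) per 100 bp and Dpp4 0.663 (0.286 to 1.31).

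The Il17a regions differed per length, with 1.08 per 100 bp over the promoter and exon 1 and 1.79 in exon 2. The difference was largest in naive cells, at 0.996 (0.271 to 2.55) in the promoter region and 2.65 (0.860 to 6.18) in exon 2, with overlapping intervals. In Treg cells the promoter region had 0.969 and exon 2 had 0.937, in Th1 cells 1.26 and 1.79. The Acsbg1 exons had 1.62 each. The number of CpG sites in the regions was not counted, since no mm9 sequence was used.

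**Figure D4:**
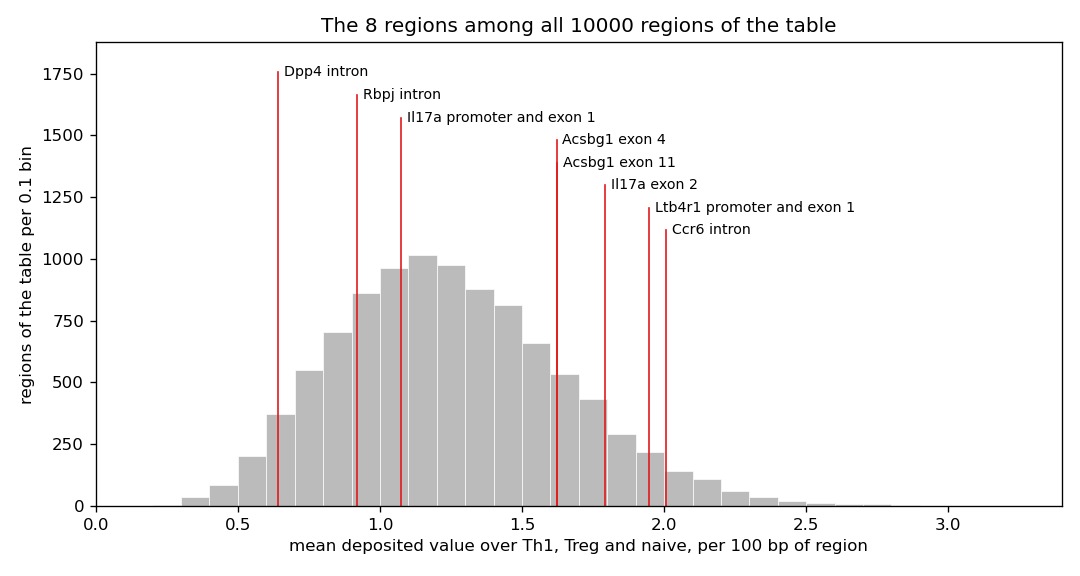
Mean deposited value over Th1, Treg and naive cells per 100 bp of region (horizontal axis) for all 10000 regions (grey, number per 0.1 bin on the vertical axis), with the 8 regions of the 6 genes as red lines. Of these, 5 lie above the table's median of 1.22 and 3 below it, from Dpp4 at 0.641 to Ccr6 at 2.01.

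Other regions of the table with the most similar reads were found by the distance between log2 values (pseudocount 0.5) over the Th1, Treg and naive libraries, for the best covered region of each gene. The Il17a promoter region had exactly the same reads as regions of 17 other genes, of which introns of Aff3 and Chst10 and an exon of Tbca came first by position. For Ccr6 there were 89 such genes, among them the interleukin-1 receptor gene Il1r1, for Dpp4 47 (first Aspm, Rgs7 and Ptpn14), for Rbpj 33 (first Pard3b, Nmnat2 and Rptor) and for Acsbg1 exon 11 6 (first Lifr, Prune2 and Kcnd3). Ltb4r1 shared its reads exactly with the promoter of Gm8659 alone, followed by Wdfy3 and Nadk. Its total of 24 reads lay at percentile 99.6 of the table, so few regions hold as many reads. For the other genes, with fewer reads, an exact match is common.

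Of 43 genes of the Th17 programme, 12 had a region in the table, the 6 above and 6 more. By role these were 1 of 8 cytokines and chemokines (Il17a), 5 of 13 receptors and surface proteins, 4 of 11 transcription factors and 2 of 11 genes of signalling and metabolism. The 6 members have a region by choice, so only the other 37 genes can be set beside all genes. Of these 37 genes 6 had a region, where 20.0% of all protein-coding genes in RefSeq had one under the same symbol. The 6 further genes held 24 regions, 14 of them in Rora, which encodes a ROR family nuclear receptor, 4 in Il1r1, 3 in Smad3, a transducer of TGF-beta signals, and 1 each in the TGF-beta receptor gene Tgfbr2 and in Runx1. Their mean values were 2.66 in Th1, 2.51 in Treg and 3.90 in naive cells. By the size rule, 1 of these 24 regions was higher in Th1 than in naive cells (19.4% of all regions) and 10 were lower (29% of all). In Treg against naive cells 0 were higher (8.33% of all) and 6 lower (22.2% of all), and in Treg against Th1 cells 5 were higher (17% of all) and 4 lower (21% of all). The 24 regions held none over a promoter, so among the 12 genes the promoter regions were those of Il17a and Ltb4r1 alone.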

How the data were processed

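Genomic DNA was fragmented, methylated DNA was enriched with a MethylCap kit, and fragments of 250 to 350 bp were sequenced, per the labels' protocols. Bowtie 0.12.7, FastQC and build mm9 are named, per the submitters' processing notes. The sources used here do not say how regions were called, how the 10000 were chosen or how reads with several matches were handled. In the deposited table there is a signal per region and library, a number of reads scaled by the authors. In the Th1, Treg and naive columns 100% of values were whole multiples of 1 constant within a relative tolerance of 1e-06, and division gave the reads. A further deposited column gives a distance in bp for promoter regions, which is not a score of any sample.

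Intervals are exact Poisson intervals for values and exact conditional binomial (Clopper-Pearson) intervals for ratios, at 95%. Exact binomial tests of reads, adjusted over the table by Benjamini-Hochberg, were an alternative only. They were tried on simulated data with many more reads per region than the deposited table holds. That trial does not show how the tests perform at the read numbers here. All regions of the 6 genes are named, as are the 3 most similar genes per member, ties broken by position, and genes of the Th17 list with a region. Some items are not reported here. Members and lists were chosen with earlier results of these data known. All 6 genes matched the RefSeq tables by symbol. Python 3.11.15, SciPy 1.17.1 and pandas 2.3.3 were used.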

Additional observations from a re-analysis of the deposited data

How the results depend on the processing

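The counts of regions past 2-fold rest on 1 region each and moved with the settings. With a pseudocount of 5, 0 of 8 regions passed in Th1 against naive, in Treg against naive and in Treg against Th1. At this setting 0 of 8 were lower in Th17 than in each of the 3 others. The share of all regions is not given for that Th17 count, so it is no result about the 6 genes. In the 3 comparisons without Th17, few of the 10000 regions passed at this setting. Th1 against naive gave 191 higher and 221 lower, Treg against naive 6 and 73, and Treg against Th1 18 and 171. With a threshold of 1.5-fold, 2 of 8 passed in each of the 3 comparisons. Of the 10000 regions, 3157 were then higher and 3725 lower in Th1 against naive. The counts were 1607 and 3918 in Treg against naive, and 2627 and 3517 in Treg against Th1. With libraries scaled to equal table totals, 0 of 8 passed in Treg against naive, where 1518 of the 10000 regions were higher and 1233 lower. An exact binomial test of the reads called 0 of 8 in each comparison, also without adjustment. Without adjustment it called 153 of the 10000 regions in Th1 against naive, 840 in Treg against naive and 501 in Treg against Th1. With so few calls over the table, 0 of 8 is no result about the 6 genes. The ratio of summed values of Treg over naive was 0.840 as deposited and 1.09 at equal table totals, and that of Treg over Th1 was 0.996 and 1.25, so the side of 1 on which they lie depends on the scaling. Leaving out each gene in turn gave 0.787 to 0.931 for Th1 over naive, 0.786 to 0.923 for Treg over naive and 0.878 to 1.14 for Treg over Th1. Only 1 of the 6 genes kept its place in the order when levels were not divided by length, and 2 kept it in the Treg library alone. The cause was not tested. Depth limits all of these, with 12 to 24 reads per region. No paired analysis was possible because each population has 1 library.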
